A study of Homo sapiens with 2 samples.

Results

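The integrated stress response and amino acid synthesis genes described here are 32 genes chosen by name, with earlier results of these data known. They comprise 3 kinases of the translation initiation factor eIF2, 2 subunits of the phosphatase that opposes them, 8 transcription factors and co-regulators, 6 stress outputs and 13 enzymes of amino acid and folate metabolism. Of these, 30 were matched to a named probe set among the 17687 genes of the table, and ATF5 and GPT2 were not analysed here. The cells were SW48, an established human colorectal cancer line, in which both cultures carried a transfected small interfering RNA (siRNA) at 5 nmol/L for 3 days. The siControl culture received a negative control siRNA and the siYY1 culture a single siRNA against YY1, a zinc finger protein that binds promoters and turns some genes up and others down. Each culture gave 1 whole-transcript array, so no replicate gives an error, no test can be made, and every difference given here describes these 2 arrays. With a single siRNA, effects through YY1 and effects on other transcripts cannot be told apart, and YY1's own transcript was not analysed here.

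The integrated stress response starts when one of several kinases phosphorylates eIF2 on sensing a particular stress. Bulk translation then slows, while the mRNA of the transcription factor ATF4 is translated better. ATF4, with partners of the C/EBP family, switches on genes for amino acid uptake and synthesis, tRNA charging and, when stress persists, for growth arrest and cell death. Much of ATF4 control is exerted on translation, so the level of ATF4 mRNA is only a partial readout of its activity. In colorectal cancer cells, as in other fast-growing cells, the serine, glycine and asparagine synthesis enzymes of this programme supply building blocks for growth.

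The stress outputs differed most between the arrays. All 4 that were bright enough to be compared, CHAC1, DDIT4, SESN2 and TRIB3, were between 1.55-fold and 1.96-fold higher in siYY1. The synthesis enzymes differed less and in both directions, with PSPH 1.58-fold higher and PSAT1 1.43-fold lower, although they catalyse neighbouring steps of serine synthesis. The transcription factors, ATF4 included, all lay within 1.5-fold among those bright enough to be compared, as did most genes so compared. Values are the deposited log2 values, and a difference is siYY1 minus siControl, so 0.58 stands for 1.5-fold. Genes were compared when their mean over both arrays reached 7.54, the median of all named genes. This filter on dim probes left 8844 genes, called the kept genes, among them 24 of the 30 matched members.

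Of these 24 members, 7 were at least 1.5-fold higher in siYY1, against 3.04% of the kept genes, and 0 were at least 1.5-fold lower, against 3.78% of the kept genes. The 7 were EIF2AK3, TRIB3, CHAC1, DDIT4, SESN2, PSPH and PCK2. PCK2 lay under the filter value in siControl (7.33) and was kept through its siYY1 value (7.92). Its place among the 7 is therefore uncertain, and it came under the threshold with median or lowess centring. In all, 18 of the 24 lay above 0, beside 50.4% of all kept genes. The median difference of the 24 was 0.24, beside 0.00 over all kept genes. At a lower threshold, a difference of 0.32, 10 of the 24 members were higher, against 12.2% of the kept genes, and 2 lower, against 13.5%. The 6 members under the filter were PPP1R15A, ATF3, STC2, VLDLR, CTH and CBS. ATF3 (1.58-fold) and CTH, just past the threshold, were more than 1.5-fold lower in siYY1, and CTH came under it with quantile normalisation (-0.57). Thus the absence of lower members holds for the kept members and not for all of those measured. The share of all dim genes past 1.5-fold is not given here, so ATF3 and CTH have no background beside them. A difference in RNA from a whole culture does not show whether every cell or a part of the cells differed.

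**Figure D1:**
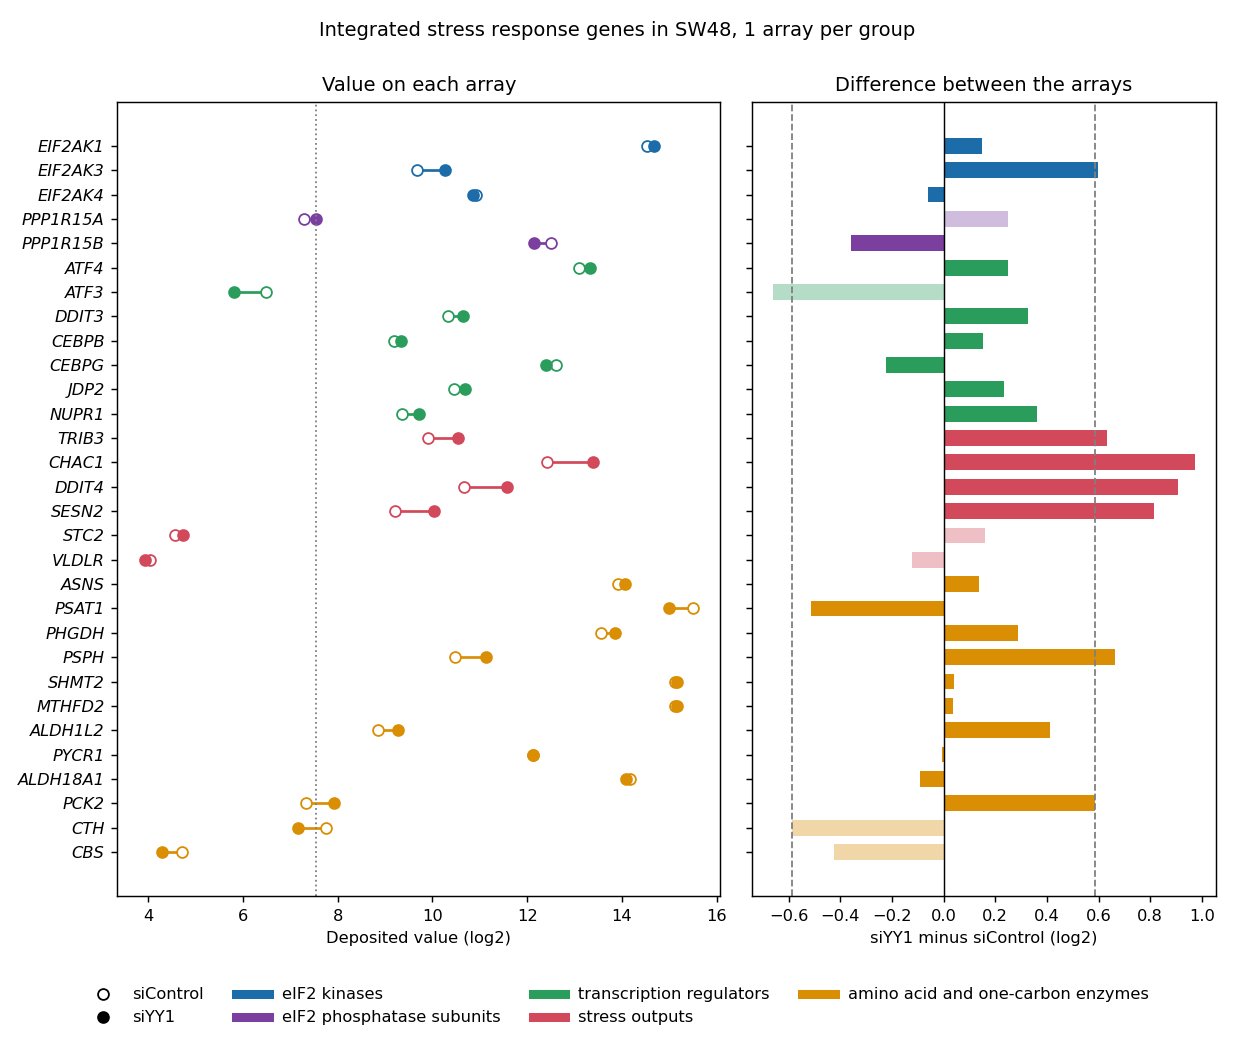
The 30 matched members by role. On the left, the deposited log2 value in siControl (open circles) and siYY1 (filled circles), with the filter value of 7.54 dotted. On the right, siYY1 minus siControl on the log2 scale, with dashed lines at 1.5-fold either way and pale bars for the 6 dim members. The 4 kept stress outputs run from 0.63 for TRIB3 to 0.97 for CHAC1, and CHAC1, DDIT4 and SESN2 have the longest bars. PSPH (0.66) and the dim ATF3 (-0.66) have longer bars than TRIB3, and PSAT1 is the lowest kept member at -0.51.

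As a check on the arrays, the reference genes ACTB and GAPDH differed by 0.11 and -0.03. GAPDH lay above 16 on each, beyond the log2 range of a 16-bit scan, so its small difference says little. Of 7 matched colorectal epithelial markers, 6 were kept, among them EPCAM, CDH1, KRT8 and CDX2, and VIL1 was dim at 6.04 and 5.68. None of 5 fibroblast or 4 endothelial markers was kept, with highest values of 5.97 and 5.80 in siControl. Of 5 leukocyte markers, CD68 was kept, at 8.72 in siControl and 7.64 in siYY1, while PTPRC, the defining marker, was dim at 4.91 and 5.35. The part of these markers in the results was not tested.

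The DNA upstream of the members gives the setting in which ATF4 and its partners act. ATF4 bound to a C/EBP protein recognises a composite element known as CARE (C/EBP-ATF response element), searched here by its core TGATGNAA on both strands, where N is any base. The CCAAT box, searched as CCAAT on both strands, is bound by NF-Y and is common in promoters of stress genes. RefSeq promoter windows (GRCh38.p14, 250 bases before to 50 after a start site) were found for 25 of the 32 members. A CARE core was present in a window of 6 of these (24.0%), beside 4.46% of 27305 genes, and a CCAAT box in 16 (64.0%), beside 39.7%. The members had more windows per gene than all genes did (1.56 and 1.29). The members were chosen as known genes of this response, and some are textbook CARE genes, so this share is not independent of the choice. A match is a stretch of letters and not a known binding site. The bases before the start site are printed for the 3 outputs with the largest differences, for PSAT1, which was lower, and for PPP1R15B, which was lower by a smaller amount and holds both motifs. They run from 250 to 1 base upstream, on the gene's own strand, with CARE cores and CCAAT boxes in capitals (the reverse complement where the motif lies on the other strand).
CHAC1: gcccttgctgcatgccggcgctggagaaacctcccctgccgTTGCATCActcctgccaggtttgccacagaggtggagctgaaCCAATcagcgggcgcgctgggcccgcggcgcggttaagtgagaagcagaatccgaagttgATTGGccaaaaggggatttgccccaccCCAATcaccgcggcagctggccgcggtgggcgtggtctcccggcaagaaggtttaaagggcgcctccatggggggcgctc
DDIT4: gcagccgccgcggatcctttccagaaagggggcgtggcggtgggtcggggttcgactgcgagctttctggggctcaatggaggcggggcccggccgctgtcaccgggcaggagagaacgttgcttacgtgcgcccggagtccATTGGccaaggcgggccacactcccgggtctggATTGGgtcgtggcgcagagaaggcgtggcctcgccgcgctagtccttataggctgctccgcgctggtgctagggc
SESN2: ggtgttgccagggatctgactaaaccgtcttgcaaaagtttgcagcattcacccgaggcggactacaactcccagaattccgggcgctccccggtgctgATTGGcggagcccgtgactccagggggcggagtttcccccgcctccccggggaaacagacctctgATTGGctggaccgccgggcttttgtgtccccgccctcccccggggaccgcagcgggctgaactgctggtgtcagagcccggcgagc
PSAT1: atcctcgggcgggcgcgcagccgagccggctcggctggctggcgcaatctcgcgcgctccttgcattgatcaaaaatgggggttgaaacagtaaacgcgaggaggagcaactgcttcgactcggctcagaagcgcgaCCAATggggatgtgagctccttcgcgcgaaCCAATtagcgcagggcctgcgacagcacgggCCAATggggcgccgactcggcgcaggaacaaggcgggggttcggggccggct
PPP1R15B: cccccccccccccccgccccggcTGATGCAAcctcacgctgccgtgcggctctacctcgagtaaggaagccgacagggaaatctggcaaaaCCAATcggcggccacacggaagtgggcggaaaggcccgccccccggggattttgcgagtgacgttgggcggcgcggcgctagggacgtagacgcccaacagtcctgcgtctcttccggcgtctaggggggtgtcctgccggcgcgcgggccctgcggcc
These lie at chr15:40953221-40953470 (plus strand), chr10:72273674-72273923 (plus strand), chr1:28259268-28259517 (plus strand), chr9:78296875-78297124 (plus strand) and chr1:204411818-204412067 (minus strand).

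In these windows CHAC1 held a CARE core starting 209 bases upstream and 3 CCAAT boxes. DDIT4 and SESN2 each held 2 CCAAT boxes and no CARE core. PSAT1 held 3 CCAAT boxes, at 113, 83 and 52 bases upstream, and no CARE core. PPP1R15B held a CARE core at 227 and a CCAAT box at 159 bases upstream. The other 4 members with a CARE core are shown by the element and its flanks, with the core in capitals.
ASNS: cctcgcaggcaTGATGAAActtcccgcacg
CEBPG: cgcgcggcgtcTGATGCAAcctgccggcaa
JDP2: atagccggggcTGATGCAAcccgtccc
ATF3: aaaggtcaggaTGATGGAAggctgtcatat
These lie at chr7:97872458-97872487 (minus strand), chr19:33374060-33374089 (plus strand), chr14:75427995-75428021 (plus strand) and chr1:212565205-212565234 (plus strand), and the cores start 68, 42, 16 and 191 bases before the start site of the window.

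CARE cores were found both among the higher members and among those within 1.5-fold. Of the 7 higher members, 6 had a window, and CHAC1 was the 1 with a CARE core. Among the 17 kept members within 1.5-fold, 12 had a window and 4 held a CARE core, namely ASNS, CEBPG, JDP2 and PPP1R15B. Their differences ran from -0.36 for PPP1R15B to 0.23 for JDP2. A CCAAT box was present in 5 of the 6 higher members with a window and in 7 of the 12 others. A core of the YY1 motif, searched as ATGGCGG on both strands, was found in 1 of the 25 members, CEBPG, beside 6.66% of all genes. A full cAMP response element, searched as TGACGTCA, which reads the same on both strands, was found in 1, PPP1R15A, beside 2.25% of all genes. That these letters are not in a window says nothing about binding elsewhere.

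The eIF2 kinases differed in direction and size. EIF2AK3, which encodes PERK, the kinase that senses unfolded proteins in the endoplasmic reticulum (ER), was 9.67 in siControl and 10.27 in siYY1. Its difference of 0.60 was just past 1.5-fold (1.51-fold), and 252 kept genes had a larger positive difference. EIF2AK1, which encodes the heme- and mitochondrial stress-sensing kinase HRI, was 14.53 and 14.67, a difference of 0.15. EIF2AK4, which encodes GCN2, the kinase that senses uncharged tRNA, was 10.92 and 10.86, a difference of -0.06. EIF2AK2, which is not a member and encodes PKR, the eIF2 kinase that senses double-stranded RNA, was 13.41 and 13.46, a difference of 0.05, named after its value was seen. The kinase gene for ER stress was thus the only one of these past 1.5-fold. Whether the kinases differ from each other was not tested.

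The subunits that direct protein phosphatase 1 to eIF2 lay on opposite sides of 0. PPP1R15B, the constitutive subunit, was 12.50 in siControl against 12.14 in siYY1, a difference of -0.36. PPP1R15A, the stress-induced subunit GADD34 and itself an ATF4 and CHOP target, was 7.28 and 7.53, which is under the filter on both arrays. Its difference of 0.25 is uncertain for that reason.

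The transcription factors mostly had small positive differences. ATF4 was 13.08 in siControl and 13.33 in siYY1. It was 1.19-fold higher (difference 0.25), and 1603 kept genes had a larger positive difference. DDIT3, which encodes the pro-death factor CHOP, was 10.32 and 10.65, a difference of 0.33. NUPR1, a small stress-induced chromatin protein, was 9.36 and 9.72, and its difference of 0.36 was the largest of the group. In 5 of the 6 kept genes of this group siYY1 was the higher array, beside 50.4% of all kept genes, and the group's median was 0.24. No gene of the 6 was past 1.5-fold, beside 3.04% of all kept genes upward and 3.78% downward. In a group of this size that is near the background. JDP2, a repressor that can compete with ATF factors, was 10.46 and 10.69 (difference 0.23). CEBPB, a partner of CHOP and ATF4, was 9.18 and 9.33 (difference 0.15). CEBPG, which pairs with ATF4 on amino acid response genes, was the exception at 12.61 and 12.39, a difference of -0.22. ATF3, an early stress-induced repressor, was dim at 6.48 and 5.82 and went the other way from CHOP, with a difference of -0.66. ATF4 and ASNS have pseudogenes whose transcripts the probes may share, as do PSAT1, PSPH and MTHFD2, so their single values are uncertain. In RefSeq the spans of EIF2AK3, CEBPB and JDP2 also overlap antisense genes, that of DDIT3 overlaps MARS1 and that of PCK2 overlaps NRL, and how well the probes separate these is not known.

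The stress outputs formed the group with the largest differences. CHAC1, which breaks down glutathione, was 12.42 in siControl and 13.39 in siYY1. Its difference of 0.97 (1.96-fold) was exceeded by 36 of the 8844 kept genes. DDIT4, also called REDD1, which restrains the growth kinase complex mTORC1, was 10.66 and 11.57, a difference of 0.91 (1.88-fold), and 49 kept genes exceeded it. SESN2, a leucine sensor that also restrains mTORC1, was 9.22 and 10.03, a difference of 0.81 (1.76-fold), and 79 kept genes exceeded it. TRIB3, a pseudokinase that feeds back on ATF4 and CHOP, was 9.91 and 10.54, a difference of 0.63 (1.55-fold), and 205 kept genes exceeded it. All 4 kept outputs were thus past 1.5-fold, beside 3.04% of the kept genes, and none reached 2-fold, which 0.373% of the kept genes did upward and 0.577% downward. The other 2 outputs, the secreted glycoprotein gene STC2 (4.56 and 4.73) and the lipoprotein receptor gene VLDLR (4.05 and 3.93), were far under the filter on both arrays. DDIT4 and SESN2 are also targets of other stress factors, p53 among them, so their values are not specific to ATF4.

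Because scatter between the arrays was narrower among bright genes, each member was also set beside the kept genes whose mean lay within 0.5 of its own. Near CHAC1, 2 of 1026 genes had a difference as large in the same direction, which is 0.195%. The share was 0.490% near DDIT4, 0.837% near SESN2, 2.40% near TRIB3 and 3.24% near EIF2AK3. PSPH had 1.91% of its neighbours as far out, and PCK2 5.82%. PCK2 was kept through its siYY1 value and lay near the filter, and its neighbours were kept genes only. Its share is therefore uncertain. On the low side, 5 of 211 genes near PSAT1 (2.37%) were as low. These shares describe where the members lay and are not p-values, since genes are not replicates.

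**Figure D2:**
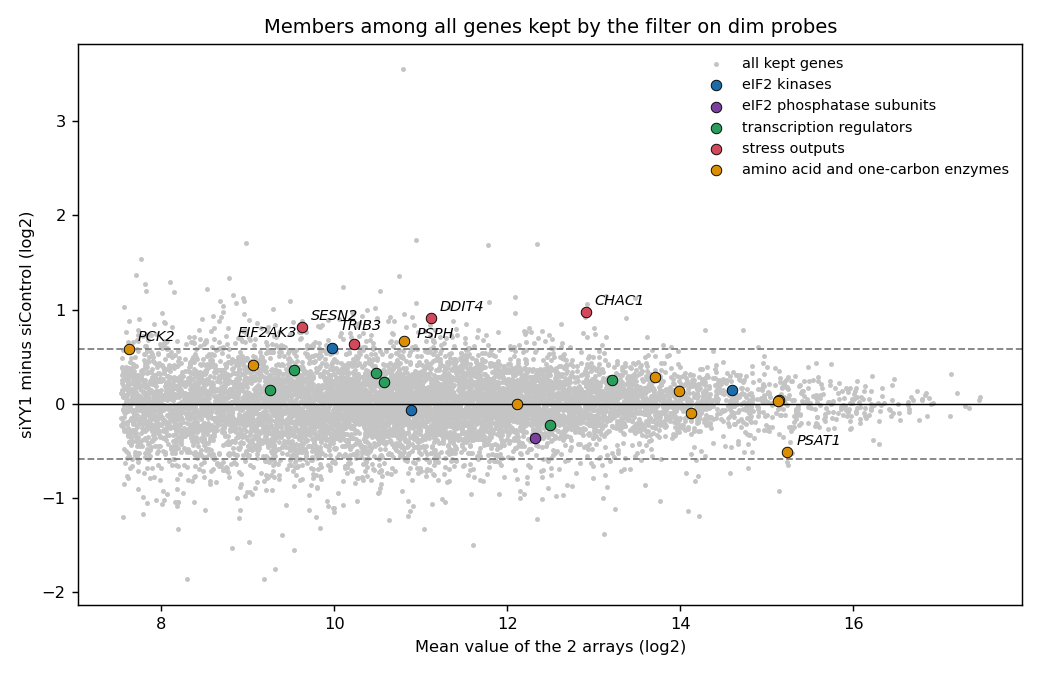
Difference between the arrays (siYY1 minus siControl, log2) against the mean of the 2 arrays (log2) for the 8844 kept genes in grey, with the 24 kept members in colour by role and dashed lines at 1.5-fold. The grey cloud narrows to the right; CHAC1 at 0.97 and PSAT1 at -0.51 lie at its edge for their brightness.

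The 3 enzymes of serine synthesis differed in direction. PHGDH, which commits a glycolytic intermediate to serine synthesis, was 13.56 in siControl against 13.85 in siYY1, a difference of 0.29. PSAT1, the aminotransferase of the next step, was 15.50 and 14.98, a difference of -0.51 or 1.43-fold lower, and 499 kept genes had a lower difference. PSPH, the phosphatase of the last step, was 10.48 and 11.14, a difference of 0.66 (1.58-fold), exceeded by 174 kept genes. The first and last enzymes were therefore higher in siYY1 and the middle one lower, with PSPH alone past 1.5-fold. Among kept genes within 0.5 of PHGDH's mean, 10.7% had a positive difference as large, and the 95th percentile was 0.36. PSPH has a copy, PSPHP1, and PSAT1 has pseudogenes, which the probes of these genes may not separate.

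Downstream of serine, SHMT2 and MTHFD2 of the mitochondrial folate branch differed little. SHMT2, which converts serine to glycine, was 15.12 and 15.16 (difference 0.04). MTHFD2, which oxidises the folate unit that SHMT2 releases, was 15.12 and 15.15 (difference 0.03). Among kept genes within 0.5 of their mean, the 5th to the 95th percentile of differences ran from -0.38 to 0.31. ALDH1L2, a mitochondrial dehydrogenase of folate metabolism, was 8.85 and 9.27 (difference 0.41).

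Of the remaining enzymes, PCK2 had the largest positive difference. PCK2, the mitochondrial enzyme that makes phosphoenolpyruvate, was 7.33 and 7.92, a difference of 0.59, which is at the threshold of 1.5-fold. Its siControl value lay under the filter and the gene was kept through its siYY1 value, so its place among the 7 higher members is uncertain. It came under the threshold when differences were centred on the median of the kept genes or by lowess. ASNS, asparagine synthetase and a classic ATF4 target, was 13.92 and 14.05, a difference of 0.14 or 1.10-fold. The proline enzymes differed little, ALDH18A1 at 14.17 and 14.08 (difference -0.09) and PYCR1 at 12.12 and 12.11 (difference -0.004). The transsulfuration enzymes, which make cysteine, were dim and lower in siYY1. CTH was 7.76 and 7.17, a difference of -0.59, and lay above the filter value in siControl alone. CBS was 4.72 and 4.29 as the mean of 2 probe sets, which differed by -0.34 and -0.51. Over the 10 kept enzymes, 7 lay above 0, beside 50.4% of all kept genes, and the median was 0.09. Of the 10, 2 were at least 1.5-fold higher, PCK2 among them, beside 3.04% of all kept genes. A count of 0 were at least 1.5-fold lower, beside 3.78%, which is near the background for a list of this size.

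Other genes of the pathway were taken from lists by function, and a gene may be in more than 1 of them. Together these lists held 134 kept genes that are not members. Of these, 9 were at least 1.5-fold higher (6.72%), beside 3.04% of all kept genes, and 5 at least 1.5-fold lower (3.73%), beside 3.78%. Their median was 0.04.

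Amino acid transporters had the highest median of these lists. Of 14 kept, 11 lay above 0, beside 50.4% of all kept genes, and the median was 0.22. Of the 14, 3 were at least 1.5-fold higher, beside 3.04% of all kept genes, and 0 lower, beside 3.78%. SLC6A9, the glycine transporter GlyT1, was 10.41 in siControl against 11.48 in siYY1, a difference of 1.07 (2.10-fold), larger than that of any member. SLC1A4, a carrier of alanine, serine and cysteine, was 10.69 and 11.52 (difference 0.84). The third gene past the threshold, named after its value was seen, was the lysosomal carrier gene SLC36A1 (9.98 and 10.58, difference 0.60). On the low side were SLC43A1 (-0.25) and SLC25A22 (-0.24).

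In the list of other genes linked to ATF4, 12 of 15 kept genes lay above 0, beside 50.4% of all kept genes. The median of the list was 0.12. In this list 2 were at least 1.5-fold higher, beside 3.04% of all kept genes, and 0 lower, beside 3.78%. These were TXNIP, a regulator of glucose uptake (10.08 and 11.82, difference 1.74), and MAP1LC3B, an autophagosome protein (11.39 and 12.12, difference 0.73). TXNIP is under strong control by glucose-sensing factors as well. On the low side, SESN1 was at -0.28, unlike its paralog SESN2, and NARS1 at -0.02. Cytosolic tRNA synthetases, many of which are ATF4 targets, had 0 of 16 kept genes past 1.5-fold, beside 3.04% of all kept genes upward and 3.78% downward, so a count of 0 in a list of this size is near the background. Their median was 0.02, and they ran from -0.25 for FARSB and -0.20 for LARS1 to 0.21 for WARS1 and 0.22 for AARS1.

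The subunits of eIF2, on which the kinases act, differed in direction. EIF2S1, the subunit that is phosphorylated, was 13.19 and 12.90 (difference -0.29), while EIF2S2 differed by 0.13 and EIF2S3, named after its value was seen, by 0.12. The mixed list that holds them, with eIF2B, related initiation factors and kinase regulators, had 21 kept genes, of which 15 were below 0. The 6 above 0 were 28.6% of the list, beside 50.4% of all kept genes. Of these 21, 0 were past 1.5-fold, beside 3.04% of the kept genes upward and 3.78% downward. Its median of -0.13 lay between the 25th and 75th percentiles of all kept genes, -0.19 and 0.18. DELE1, which relays mitochondrial stress to HRI, was lowest at -0.32, followed by EIF2S1. The highest were DNAJC3, an inhibitor of PERK (0.20), and EIF2S2 (0.13).

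ER stress sensors and outputs had 17 of 21 kept genes above 0, beside 50.4% of all kept genes, and a median of 0.12. Of the 21, 2 were at least 1.5-fold higher, beside 3.04%, and 0 lower, beside 3.78%. The 2 were EDEM1, which sends misfolded proteins to degradation (10.04 and 10.95, difference 0.91), and the chaperone gene DNAJB9 (12.32 and 12.92, difference 0.61). The chaperone cofactor SDF2L1 (-0.40) and the disulfide isomerase PDIA4 (-0.24) were lowest. The list of mTORC1 amino acid sensing genes had a median of 0.04 over 23 kept genes. In it, 2 genes were at least 1.5-fold higher (8.70%), beside 3.04% of all kept genes, and 1 lower (4.35%), beside 3.78%. The higher genes were SESN3 (0.77), a paralog of SESN2, and RRAGB (0.63), a RAG GTPase. LAMTOR2 (-0.72), a subunit of the lysosomal anchor of RAG GTPases, was lower, while MTOR was at -0.28.

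Of 18 kept enzymes of amino acid and folate metabolism outside the members, 8 lay above 0, beside 50.4% of all kept genes. The other 10 lay below 0, and the median of the 18 was -0.09. None was past 1.5-fold upward, beside 3.04% of the kept genes, and 2 were downward, beside 3.78%. These were GCSH, the lipoyl carrier of glycine cleavage (11.73 and 10.91, difference -0.82), and BCAT2, the mitochondrial branched-chain aminotransferase (13.50 and 12.75, difference -0.75). GLUL, glutamine synthetase (0.37), and MTR, methionine synthase (0.33), were highest. Among leucine zipper factors that can pair with ATF or C/EBP proteins, the AP-1 subunits FOSL1 (12.67 and 11.71, difference -0.96) and JUND (8.48 and 7.55, difference -0.93) were lower, and FOS (0.38) and JUN (0.33) were highest. That list had a median of -0.10 over 13 kept genes. FOSL1 and JUND were the 2 at least 1.5-fold lower (15.4%), beside 3.78% of all kept genes, and 0 were higher, beside 3.04%.

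**Figure D3:**
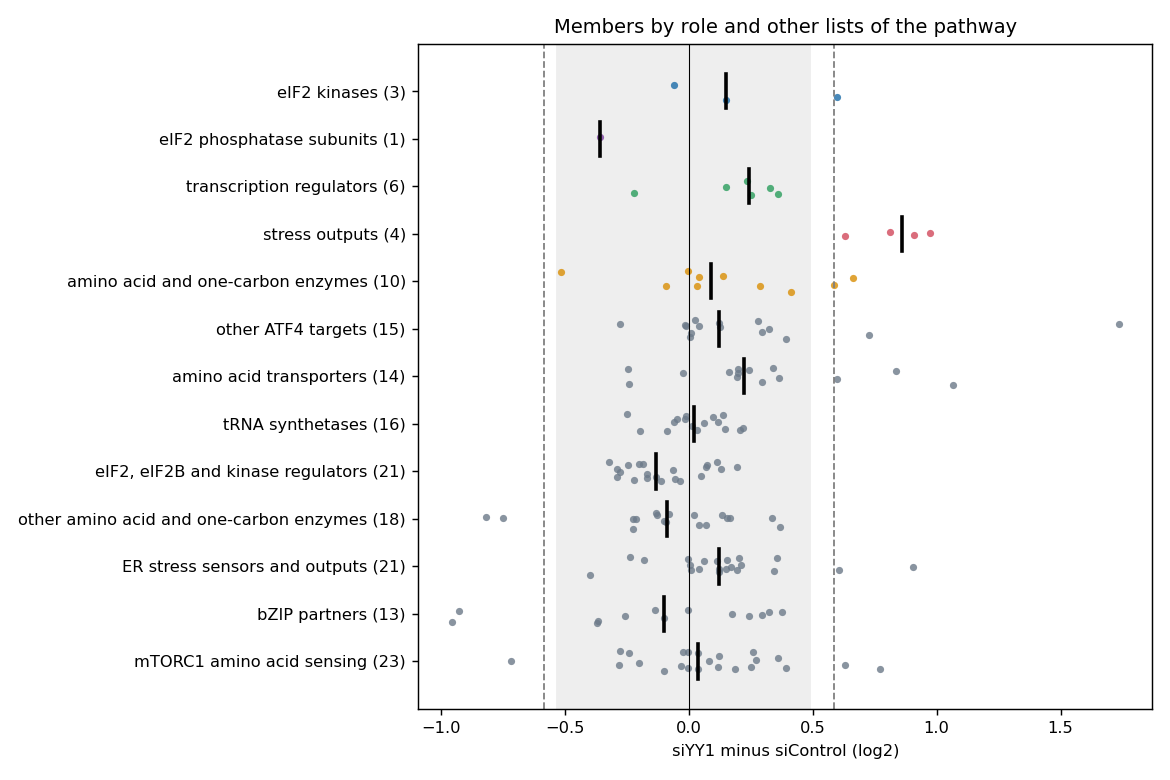
Difference between the arrays (siYY1 minus siControl, log2) for each kept gene, by role of the members (in colour) and for the other lists (grey-blue), with the number of kept genes in brackets. Black bars are medians, dashed lines mark 1.5-fold, and the shaded band spans the 5th to the 95th percentile of all kept genes, from -0.53 to 0.49. The 4 stress outputs lie beyond the band, with a median of 0.86, while the 16 tRNA synthetases lie inside it.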

How the data were processed

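The authors deposited 1 summarised value per probe set and array, taken here as log2 values because of their range (2.46 to 17.90 in siControl, 2.32 to 17.97 in siYY1); their log base, background correction, summarisation and normalisation: not given in the sources used here. Folds take base 2. Sorted from low to high, the arrays never differed by more than 0.153, so a shift of all genes could not be seen. Per the labels' protocols, sense cDNA was biotin-labelled with a whole-transcript GeneChip kit. Groups came from the sample titles. Probe sets were named through the platform annotation and RefSeq (GRCh38.p14): 17709 of 21448 had 1 symbol, and the other 3739 had no single symbol in the table used and were left out. Values of several probe sets of a gene were averaged. With 1 array per group, a difference of at least 1.5-fold took the place of a test, and the number of arrays limits precision. The members and lists were chosen with earlier results of these data known, so no pattern here is independent support. Named genes were every matched member, up to 2 kept genes at each end of each list, ACTB and GAPDH; others are marked or are markers. Alternatives were a fold of 2, a lower threshold (0.32 on the log2 scale), no filter, a filter at the 67th percentile, quantile normalisation, median and lowess (fraction 0.3) centring and the brightest probe set. A filter on the brighter array and the first listed promoter window were chosen after seeing the data. Python 3.11.15, numpy 2.4.6, pandas 2.3.3, statsmodels 0.14.6 and matplotlib 3.10.9 were used, and the steps were tested on simulated data.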

Additional observations from a re-analysis of the deposited data

How the results depend on the processing

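No paired analysis was possible because each group has 1 array and the result comes from no test. At 2-fold, 0 members were higher (main 7), and in the other lists 2 genes were higher (main 9) and 0 lower (main 5). Of all kept genes, 0.373% were at least 2-fold higher and 0.577% lower. At the lower threshold of 0.32, 2 of 24 members were lower (main 0), and in the other lists 21 of 134 genes were higher and 9 lower. Of all kept genes, 12.2% were higher and 13.5% lower at that threshold. Without a filter, 2 members were lower and the members' median was 0.16; with the stricter filter that median was 0.15 (main 0.24). With the filter on the brighter array, 1 member was lower. The shares of all genes that were lower without a filter and with the brighter-array filter are not given here. Quantile normalisation, the brightest probe set and both centrings left the members' count at 6 or 7 higher and 0 lower, with a median of 0.24 in each. CTH came under the threshold with quantile normalisation (-0.57), and PCK2 with median centring (0.58) and lowess centring (0.57). No member past 1.5-fold changed direction under these settings. With the first listed window of each gene, 4 members held a CARE core (main 6), beside 3.67% of all genes. A CCAAT box was then held by 15 members (main 16), beside 35.7% of all genes. Dim probes limit what can be said of the 6 members under the filter.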
